A study of Mus musculus with 5 samples.

Results

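The genes described here encode proteins that liver cells secrete into plasma, where most of them carry or clear small molecules: albumin (Alb), alpha-fetoprotein (Afp), transthyretin (Ttr), fetuin-A (Ahsg), transferrin (Trf), hemopexin (Hpx), haptoglobin (Hp), the alpha-1-microglobulin and bikunin precursor (Ambp), retinol-binding protein (Rbp4) and vitronectin (Vtn). These 10 genes were chosen by name as plasma carrier proteins, and each was represented by the probe set annotated to it alone that was brightest by mean signal over the arrays. Of the 10 genes, 9 were measured among 12393 named genes, with 16 probe sets between them. Trf had no value, because its probe set was annotated to several genes. The series is a dilution of adult colon RNA into whole newborn mouse RNA, prepared so that array platforms could be compared where the composition is known. The colon RNA was pooled from several C57BL/6 mice aged 8 weeks and the whole mouse RNA from several C57BL/6 mice aged 1 day, with no treatment given in the labels. The mixes held 0%, 25%, 50%, 75% and 100% colon RNA, and 10 ng of each was amplified in a double round with T7 polymerase and hybridised to 1 Affymetrix mouse array. Tissue and age differ together between the pools, and no mix had a replicate array.

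Median log2 signals lay between 6.83 and 6.92 over the 5 arrays. The 25% colon array stood apart in the hybridisation controls, all 18 of which were brightest there. Their median was 9.94 on it, against 9.02 to 9.35 on the other arrays. The 27 bacterial poly-A control probe sets, whose spikes the labels do not mention, lay between 2.65 and 5.23 and give an idea of the lowest signals. The pure colon array had Krt20, a keratin of colon epithelium, at 13.02, against 7.86 on the whole mouse array. Of 6 measured colon epithelium markers, Cdx2 passed the test given below, and all 6 had higher values at each step of colon share.

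The hepatocyte is the main source of these proteins, and a whole newborn contains its liver whereas a dissected colon does not. Afp is the dominant serum protein of the fetus, made by fetal liver and yolk sac, and is silenced in liver after birth, while Alb takes over as the main carrier of fatty acids, bile pigment and many drugs. Both belong to 1 gene family and lie next to each other on mouse chromosome 5. Liver transcription of such genes is driven by a small set of factors, among them HNF1, HNF4, the FOXA proteins and the C/EBP proteins.

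The bases just before the Alb and Afp start sites are shown because these genes are neighbours and relatives. The sequences are those of RefSeq for GRCm38.p6 on the plus strand, at chr5:90460620-90460869 for Alb and chr5:90490464-90490713 for Afp, each ending 1 base before the annotated start. Capitals mark matches, on either strand, to the HNF1 palindrome GTTAATNATTAAC with at most 3 of its 12 set letters mismatched, or to TATAAA.
Alb: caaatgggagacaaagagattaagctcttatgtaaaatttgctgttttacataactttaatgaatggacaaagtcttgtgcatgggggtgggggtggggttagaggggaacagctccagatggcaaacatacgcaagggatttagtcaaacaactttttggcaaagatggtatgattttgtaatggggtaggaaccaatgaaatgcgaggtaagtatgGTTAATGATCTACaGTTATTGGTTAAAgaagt
Afp: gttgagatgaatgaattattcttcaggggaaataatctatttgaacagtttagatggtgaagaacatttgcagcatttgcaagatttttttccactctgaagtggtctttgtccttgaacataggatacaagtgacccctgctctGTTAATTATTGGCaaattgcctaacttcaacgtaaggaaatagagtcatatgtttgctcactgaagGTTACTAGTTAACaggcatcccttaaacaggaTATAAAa

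In the Alb window the HNF1 matches lay at positions −32 to −20 and −18 to −6 from the start, and in the Afp window at −105 to −93 and −39 to −27. An HNF1 match was found in 3 of the 8 windows that RefSeq gives for 7 of the genes, those of Alb, Afp and 1 of the 2 Rbp4 starts, and in 7.58% of 32851 windows of the same length over all genes. TATAAA was found in 3 of the 8 windows (Afp, Vtn and the other Rbp4 start) and in 12.4% of all. The HNF4 letters CAAAGTCCA with at most 1 mismatch was found in the windows of Afp, Ahsg and Hpx and in 7.05% of all, the C/EBP letters TTGCGNAA in that of Ahsg and in 0.67% of all, and CCAAT, which overlaps 1 HNF1 match in each printed window, in 5 of the 8 windows and 33.8% of all. A match describes the letters and shows no binding.

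All 9 measured genes had lower signals in colon than in whole mouse, and each of them declined at every step of the dilution from 0% to 100% colon. Between the undiluted arrays, with 1 array each, the colon signal was from 7.10-fold lower (Rbp4) to 180-fold lower (Afp) than the whole mouse signal. A decline at every step was seen in 12.1% of all named genes. A colon signal at least 4-fold lower was seen in all 9 genes and in 4.37% of named genes, and one at least 32-fold lower in 7 of the 9 and in 0.815%. In such RNA mixes, fewer hepatocytes and less of a transcript per cell cannot be told apart.

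The change along the dilution was tested as the slope of the log2 signal on colon share, that is, the fitted log2 difference of colon minus whole mouse, with limma over all 5 arrays. A gene "fell" or "rose" when its p, adjusted by Benjamini-Hochberg over 22626 probe sets, was below 0.05. Of the 9 genes, 6 fell (Ttr, Rbp4, Hpx, Hp, Ambp and Vtn) and none rose, while Alb, Afp and Ahsg did not pass. Over all 12393 named genes, 14.5% fell (1797) and 9.8% rose (1215), or 1703 and 1933 with each array centred on its median. The median slope of the 9 genes was −5.15, against −0.01 over all named genes. At an unadjusted limma p under 0.05, all 9 had a negative slope, as did 21.5% of named genes. Without the 0%, 25%, 50% or 75% colon array in turn, 1 of the 9 still fell, Rbp4 in each case, and without the 100% colon array 6 fell, with Ahsg among them in place of Ttr. The 5 arrays draw on only 2 pools of RNA. Their p-values therefore contain technical spread and any bend of the signals on the log2 scale, and nothing of the spread between mice.

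**Figure D1:**
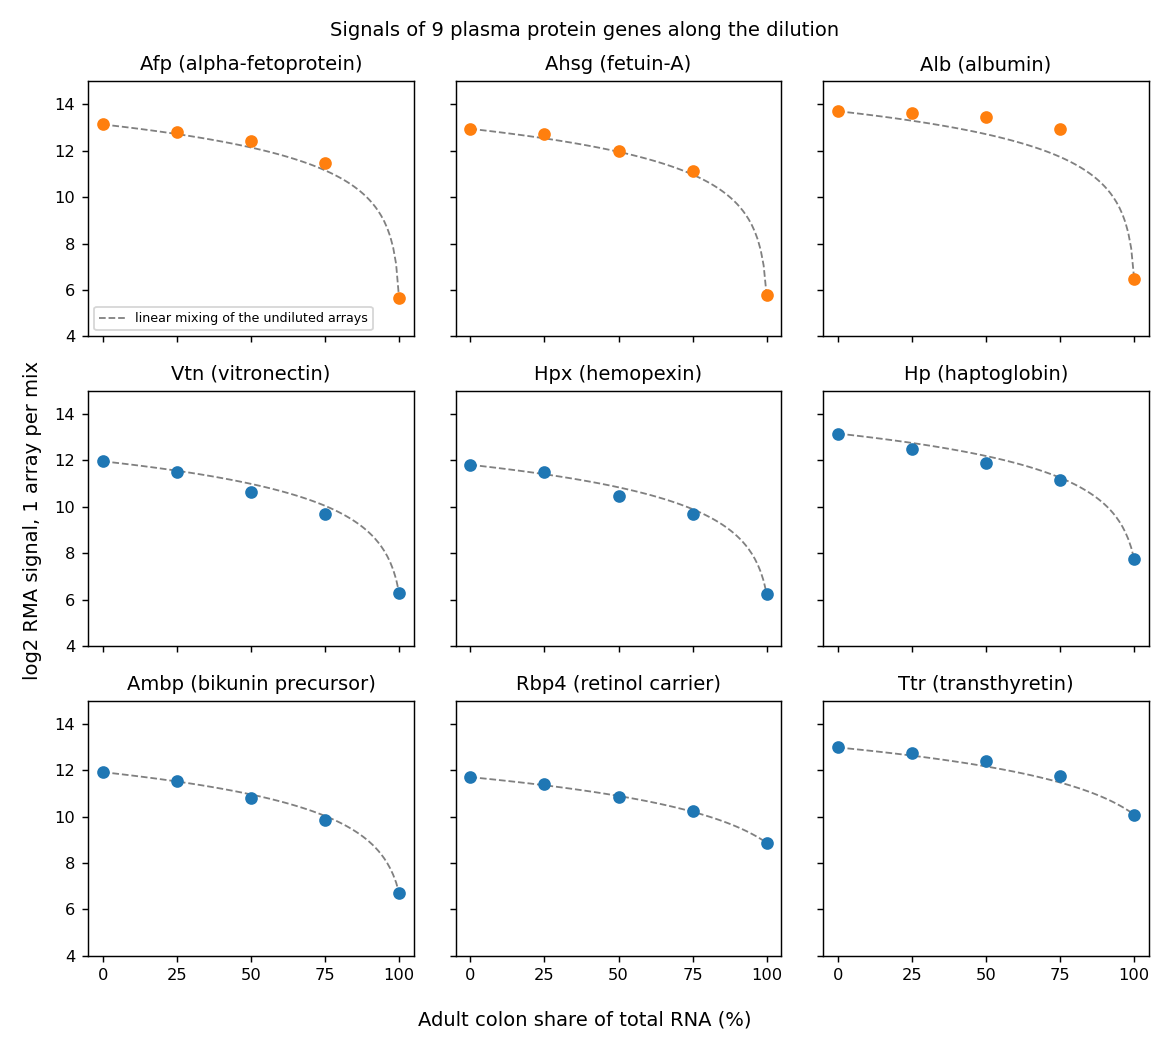
Log2 RMA signal (y axis) of the brightest probe set of each of the 9 genes against the adult colon share of total RNA in percent (x axis), 1 array per point. Blue points mark the 6 genes that fell, orange points the 3 that did not pass, and the dashed line is the signal that linear mixing of the undiluted intensities gives. Alb, Afp, Ttr and Ahsg lie above their dashed lines in all 3 mixes, Alb by up to 1.21 log2. Hpx, Hp, Ambp and Vtn lie below theirs at 50% and 75% colon. Another probe set of Ttr, not shown, lay below linear mixing in all 3 mixes, and another of Vtn lay above it.

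Among the albumin family, Alb (probe set 1425260_at) had log2 signals of 13.70, 13.63, 13.45, 12.94 and 6.48 at 0%, 25%, 50%, 75% and 100% colon. Its signal hardly moved over the first 3 mixes and then dropped between the 75% mix and pure colon. The last step was −6.46 log2, against −0.07, −0.17 and −0.51 for the steps before it, and made up 89.5% of the whole decline. Linear mixing of the undiluted intensities also puts most of the log2 decline there, but gives 11.73 at 75% colon, below the 12.94 measured. The colon signal was 149-fold lower than the whole mouse signal. The slope was −6.05 log2 (SE 2.28), and limma's adjusted p was 0.136.

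Afp, in its brightest probe set (1416646_at), had signals of 13.13, 12.79, 12.43, 11.47 and 5.64 along the same mixes. The last step of −5.84 log2 was 77.9% of the decline. Linear mixing of the undiluted intensities also puts most of the log2 decline there, with 11.15 at 75% colon for Afp against the 11.47 measured. The slope of −6.52 log2 (SE 1.98) was the steepest of the 9 genes, and the limma adjusted p was 0.082. Fitted on linear intensity in place of log2, Afp passed (adjusted p = 0.0118). Only 11 of all named genes, Afp included, had a slope at least as negative.

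The array carried 5 probe sets for Afp, and they did not behave alike. One of the 3 bright ones, 1416645_a_at, had 12.08, 12.21, 12.28, 11.23 and 2.99, so that its highest value was at 50% colon. The other, 1436879_x_at, had 11.65, 11.64, 11.64, 11.35 and 3.73 and was level until the 75% mix. Both dropped in the last step by more than the brightest probe set did, and neither passed (limma adjusted p of 0.149 and 0.175). The remaining 2 were dim on all 5 arrays, between 4.04 and 4.57 for 1436880_at and between 4.89 and 5.35 for 1436881_x_at, with slopes of −0.19 and −0.24. A high newborn signal of Afp was thus seen in 3 of its 5 probe sets.

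Transthyretin carries thyroid hormone and, bound to Rbp4, retinol, and the pair circulates as 1 complex. Ttr (1454608_x_at) had signals of 12.98, 12.76, 12.41, 11.75 and 10.08 with rising colon share. Rbp4 (1426225_at) had 11.70, 11.42, 10.86, 10.24 and 8.87. These genes had the smallest declines of the 9 and were the ones with the highest signals in pure colon relative to whole mouse, 7.43-fold lower for Ttr and 7.10-fold lower for Rbp4. Ttr fell by 2.72 log2 (SE 0.52, limma adjusted p = 0.0285) and Rbp4 had a slope of −2.73 (SE 0.37, limma adjusted p = 0.0129). Rbp4 was the single gene of the 9 whose call held with each array left out in turn (adjusted p from 0.0388 to 0.0471). The 3 probe sets of Ttr gave slopes of −2.72, −3.08 and −3.09, all past the threshold, although their values in colon ran from 8.90 to 10.08.

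Cells other than hepatocytes also make these proteins, Ttr in choroid plexus and pancreatic islets and Rbp4 and Hp in fat. The marker counts below stand beside 14.5% of all named genes that fell and 9.8% that rose. Of 4 measured choroid plexus markers, Folr1 fell by 2.29 log2 and the other 3 did not pass. The summed intensity of the list was 569 in colon and 1051 in whole mouse, carried in colon mostly by the water channel Aqp1 (8.70 in colon and 9.15 in whole mouse), which many tissues make. Otx2, a factor of that tissue, stayed between 4.48 and 4.74, within the range of the poly-A controls on every array, and so was not measurable here. Of 6 adipocyte markers, 4 fell, with a summed intensity of 2336 in colon and 11038 in whole mouse. Fabp4 had the largest part in both, followed by Adipoq in colon and by Ucp1 in whole mouse. The fatty acid carrier Fabp4 had 10.15 in colon and 12.04 in whole mouse, the hormone adiponectin (Adipoq) 9.24 in colon and 10.97 in whole mouse, and Cidec of lipid droplets 7.58 in colon and 8.98 in whole mouse. Ucp1, which marks brown fat, had 6.11 in colon and 11.90 in whole mouse. Retn did not pass, nor did Lep, the hormone leptin, which was dim on all arrays with 5.22 in colon and 5.34 in whole mouse. Of 5 islet markers, 2 rose and 1 fell, with sums of 1349 in colon and 1278 in whole mouse. Insulin (Ins2) fell, with 7.05 in colon and 8.81 in whole mouse, while Iapp (7.99 in colon and 8.75 in whole mouse) and Sst (7.95 in colon and 8.11 in whole mouse) did not pass. Glucagon (Gcg) and Ppy, hormones that gut endocrine cells share with islets, rose, with 9.11 in colon and 5.51 in whole mouse for Gcg, and 7.37 in colon and 6.25 in whole mouse for Ppy. The part of these cells in the colon signals of Ttr, Rbp4 and Hp was not tested.

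Hemopexin binds free haem and haptoglobin binds free haemoglobin, so that both are cleared from plasma without loss of iron. Hpx (1423944_at) had signals of 11.81, 11.48, 10.48, 9.70 and 6.26 along the dilution, with steps of −0.33, −0.997 and −0.78 log2 before the last one of −3.44. Hp (1448881_at) had 13.16, 12.48, 11.88, 11.16 and 7.74, with steps of −0.67, −0.61 and −0.71 log2 before the last one of −3.42. Hp was the one gene of the 9 whose first step exceeded 0.5 log2. Hpx fell by 5.15 log2 in the fit (SE 1.02, limma adjusted p = 0.0304) and Hp had a slope of −4.86 (SE 1.00, limma adjusted p = 0.0338). With a trended and robust variance prior the adjusted p of Hp was 0.0537.

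Ambp encodes a precursor that is cut into a small haem-binding carrier and bikunin, the inhibitor subunit of the inter-alpha-trypsin complex. Its signals (1416649_at) were 11.91, 11.54, 10.79, 9.87 and 6.72 from 0% to 100% colon, and it fell by 4.83 log2 (SE 0.95, limma adjusted p = 0.03). Of the heavy chains that bikunin joins, Itih1 and Itih2 fell, with slopes of −2.83 and −3.48 log2, and Itih3, with 6.41 in colon and 12.99 in whole mouse, had a slope of −5.90 (limma adjusted p = 0.0594). Itih4, a relative that circulates without bikunin, fell by 3.92 log2.

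Fetuin-A binds calcium phosphate in plasma and is abundant before birth. Ahsg (1455093_a_at) had signals of 12.94, 12.71, 11.99, 11.14 and 5.77, and the last step of −5.37 log2 was 74.9% of its decline. For Ahsg, linear mixing of the undiluted intensities gives 10.97 at 75% colon, near the measured value. Its slope of −6.36 log2 (SE 1.77) did not pass (limma adjusted p = 0.0662), although it did with the arrays centred on their medians (adjusted p = 0.0437) and on linear intensity (adjusted p = 0.0101). Vitronectin is an adhesive plasma protein that binds integrins and stabilises the plasminogen activator inhibitor. Vtn (1420484_a_at) had 11.96, 11.52, 10.64, 9.68 and 6.30 and fell by 5.26 log2 (SE 0.99, limma adjusted p = 0.0275). Its other probe set (1455098_a_at) was dimmer, with 8.56, 8.23, 8.20, 7.49 and 5.86, and fell by 2.46 log2.

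In pure colon, 6 of the 9 genes had signals below that array's median of 6.83, namely Afp, Ahsg, Hpx, Vtn, Alb and Ambp, and 3 lay above it, Hp, Rbp4 and Ttr. The lowest, 5.64 for Afp, was just above the highest bacterial poly-A control signal of 5.23. The other bright probe sets of Afp, with 2.99 and 3.73 in colon, lay within the range of those controls. No detection calls came with the table, so how much of these low colon signals is transcript was not tested, and the folds against them are inexact for that reason.

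The mixes allowed each gene to be set against linear mixing, in which a mix has the weighted mean of the undiluted intensities. Under linear mixing, a gene absent from colon would change by −0.42, −0.58 and −1 log2 at the first 3 steps. This takes both pools to hold the same share of mRNA in total RNA, which was not tested. The deviation is the measured log2 signal minus the signal of linear mixing, and was described without a test because each mix had 1 array. At 75% colon the 9 deviations ran from −0.37 (Vtn) to 1.21 (Alb), with a median of 0.036. At 50% colon they ran from −0.36 (Hpx) to 0.74 (Alb), with a median of −0.030. The range at 25% colon was from −0.27 (Hp) to 0.34 (Alb), with a median of 0.069. In other probe sets the deviation at 75% colon was 0.38 for Vtn, and 0.02 and −0.16 for Ttr.

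Of the brightest probe sets per gene, that of Alb departed most. The 75% mix held 25% whole mouse RNA, but the intensity of Alb there was 58.9% of the way from its colon to its whole mouse value, and it was 84.2% at 50% colon and 94.9% at 25% colon. For Ttr that share at 75% colon was 33.8% (25.6% and 21.2% in its other probe sets). It was 31.3% for Afp (55.5% and 80.8% in its other bright probe sets), 28.2% for Ahsg and 26.0% for Rbp4. Hp had 23.3%, Ambp 22.0%, Hpx 21.5% and Vtn 18.95%, all below the 25% in the mix. The dimmer probe set of Vtn had 37.9%, above it. The order was not the same in every mix, since Hp had the lowest share at 25% colon (61.7%) and Hpx the lowest at 50% colon (38.5%). Probe sets at least 4-fold lower in colon did not keep to 25% either. Their median share at 75% colon was 21.2% at whole mouse signals from 11 to 12, 23.4% from 12 to 13 and 34.4% at 13 or more.

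**Figure D2:**
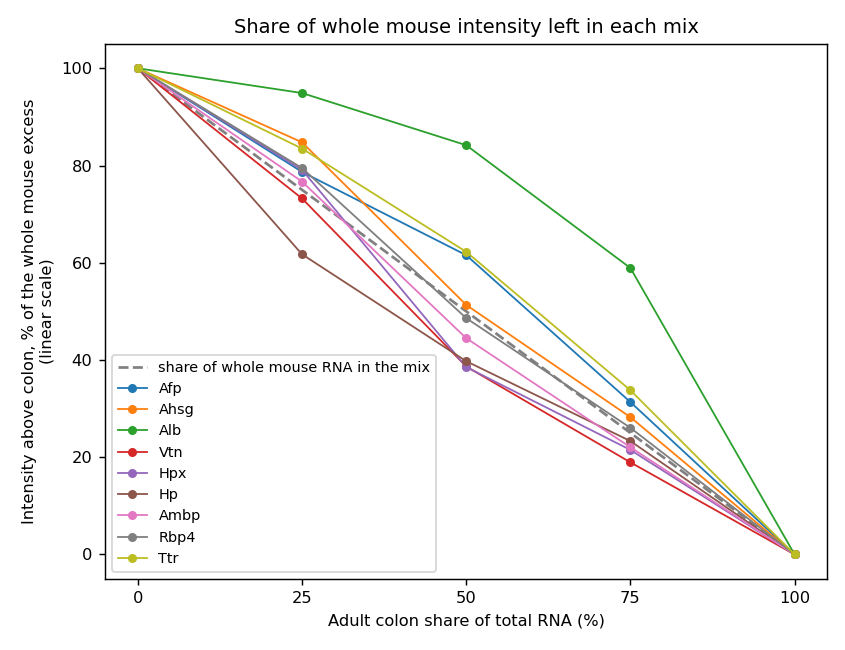
Intensity above the colon array as a percentage of the whole mouse excess on the linear scale (y axis) against the adult colon share of total RNA in percent (x axis), for the 9 genes, 1 array per point. The dashed line is the share of whole mouse RNA in the mix, and the end points are 100% and 0% by construction. The probe set of Alb lies farthest above the line in the 3 mixes, at 58.9% where the mix held 25%.

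The deviations were set beside those of all 737 probe sets, the 9 genes included, with a colon signal at least 4-fold below the whole mouse signal, which had a median of −0.22 at 75% colon. Among them, the 30 with a whole mouse signal of 13 or more had a median of 0.41, with quartiles of 0.26 and 0.88. Alb (1.21) lay above those quartiles, Afp (0.32) between them and Hp (−0.09) below. The 51 probe sets from 12 to 13 had a median of −0.09, and Ttr (0.28) and Ahsg (0.17) were above it. The 100 from 11 to 12 had a median of −0.19, close to Ambp (−0.16) and Hpx (−0.20), with Rbp4 (0.04) above and Vtn below. The groups from 10 to 11 (118 probe sets), from 8 to 10 (323) and below 8 (115) had medians of −0.27, −0.26 and −0.21 and held none of the 9 genes.

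Across the 9 genes, the deviation at 75% colon and the whole mouse signal had a Pearson correlation of 0.76 and a Spearman correlation of 0.63. Across the 737 probe sets these were 0.32 and 0.19. All points share the same arrays, and the whole mouse signal enters both measures, so these are descriptions. Among the 737 probe sets, 8 of the 30 at 13 or more fell, against 320 of the 323 between 8 and 10. Of the 9 genes, 1 of the 3 at 13 or more fell (Hp), 1 of the 2 from 12 to 13 (Ttr) and all 4 from 11 to 12. The 737 were chosen by their fold between the undiluted arrays. Those arrays are the end points of the slope fit, so the choice itself favoured a pass. Large folds also bend the log2 signal under linear mixing, which adds to the residual spread. These counts therefore cannot be read as an effect of brightness. The 2 less bright probe sets of Afp with high newborn signals deviated by 1.14 and 1.68 at 75% colon, more than the brightest one, so brightness on the whole mouse array did not order the probe sets of that gene.

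**Figure D3:**
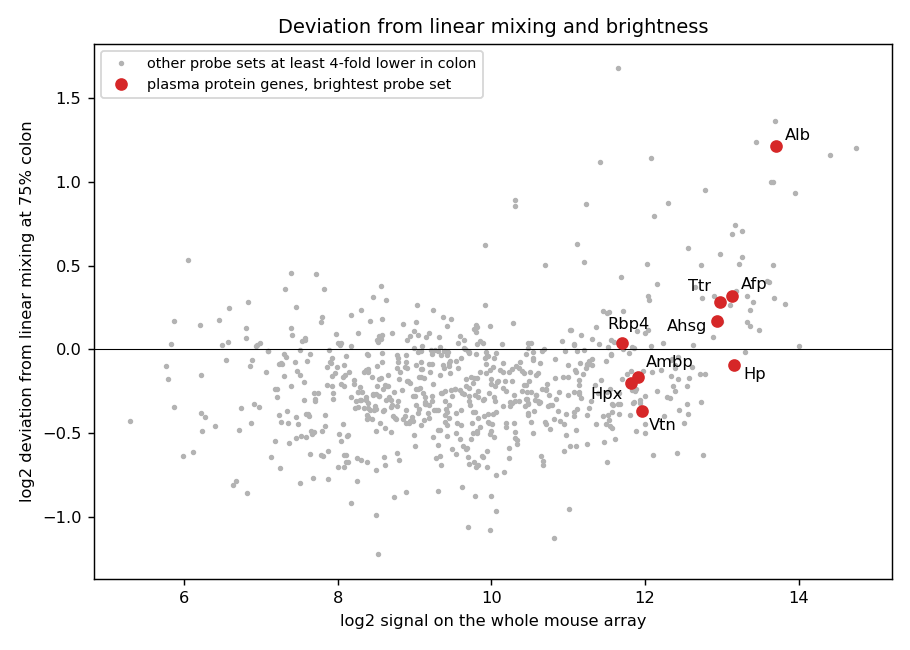
Log2 deviation from linear mixing at 75% colon (y axis) against the log2 signal on the whole mouse array (x axis) for 737 probe sets at least 4-fold lower in colon, 1 point per probe set. Red points are the brightest probe sets of the 9 genes, grey points all others, and the black line is linear mixing. Most grey points below a signal of 12 lie under the line, and Alb is among the highest points at 1.21.

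The genes whose signals were most like those of Alb and Afp over the 5 arrays came from several tissues. Likeness was the root mean square difference in log2 signal after each gene was centred on its own mean. For Alb the 5 closest were skeletal actin Acta1 (0.11), the fast muscle troponin Tnnt3 (0.22), the lung surfactant gene Sftpc (0.22), Igfbp1 (0.28), a liver binding protein for insulin-like growth factors, and Afp (0.30). For Afp they were Igfbp1 (0.079), Sftpc (0.082), the embryonic myosin Myh3 (0.16), Tnnt3 (0.16) and the skin envelope gene Lor (0.19). Alb itself ranked 14 for Afp (0.30), behind genes of muscle, lung and skin. Among the other plasma protein genes, Ahsg ranked 8 for Afp and 16 for Alb, whereas Ttr and Rbp4 ranked 221 and 266 for Alb.

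Other plasma proteins of liver mostly moved the same way. Of 16 measured genes for other carriers and binding proteins, 9 fell and none rose, with a median slope of −1.12. Apoh, a phospholipid-binding plasma protein, fell by 4.90 log2, as did the lipid-binding Azgp1 (slope −3.38) and the fetuin relative Fetub (slope −3.33). Afm, the vitamin E carrier of the albumin family, fell by 1.38 log2 (limma adjusted p = 0.0061). Selenop, the selenium carrier, which other tissues make too, had 12.65, 12.65, 12.83, 12.49 and 12.65 and a slope of −0.07 (limma adjusted p = 0.831). Orm2, an acid glycoprotein, stayed between 3.59 and 3.80, within the range of the poly-A controls.

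Of 27 measured genes for clotting factors, complement, inhibitors and apolipoproteins, 18 fell and none rose, with a median slope of −3.92. The largest of these that passed were Kng1 (−7.10), Fga (−6.03) and the high-density lipoprotein gene Apoa2 (−5.22). Apoa1 was the brightest one not past the threshold, and like Alb it bent, with 13.66, 13.59, 12.99, 12.17 and 5.46 (slope −7.13, limma adjusted p = 0.0948). Of 11 hepatocyte enzymes, 7 fell and none rose, led by Bhmt (−6.21), the urea cycle enzyme Arg1 (−3.94) and Hgd (−3.36) of tyrosine breakdown. Otc, another urea cycle enzyme, had 7.69 in colon and 6.85 in whole mouse (slope 0.88, limma adjusted p = 0.0586). The lists were chosen with earlier results of these data known, and their counts stand beside 14.5% of all named genes that fell.

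**Figure D4:**
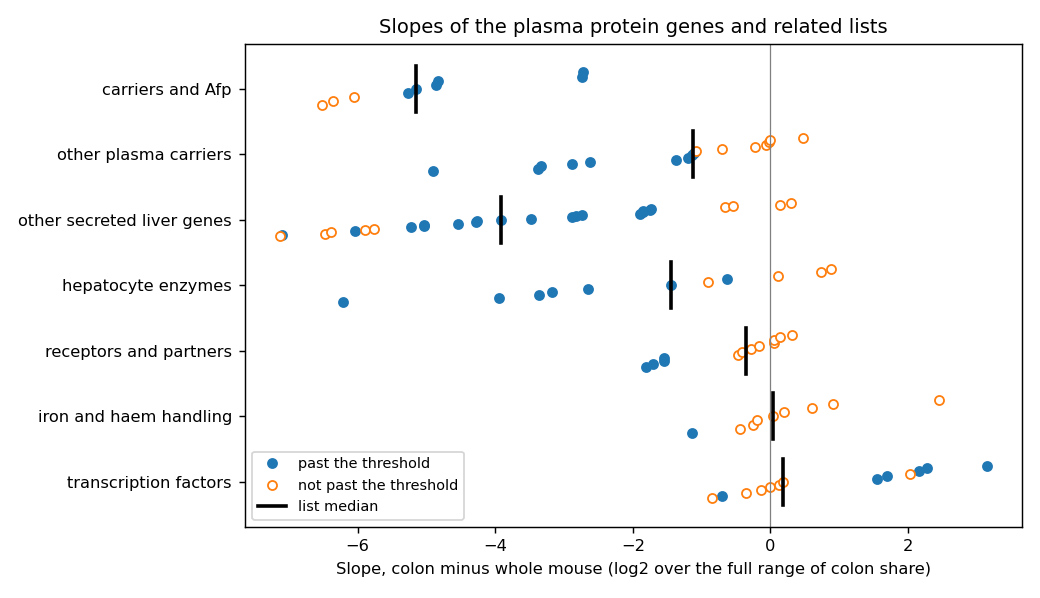
Slope of the log2 signal, colon minus whole mouse over the full range of colon share (x axis), for each measured gene of 7 lists (rows), 1 point per gene. Filled points passed the threshold, open points did not, and black bars are list medians. The median is −5.15 for the 9 plasma protein genes and 0.18 for the transcription factors.

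Receptors and partners of the carriers were less uniform. Of 12 measured, 4 fell and none rose, with a median slope of −0.35, beside 14.5% of all named genes that fell and 9.8% that rose. Fcgrt, the neonatal Fc receptor that saves albumin from breakdown, had 12.36, 12.24, 11.81, 11.26 and 10.91 and fell by 1.54 log2. Cubn and Amn, which together take up albumin, transferrin and vitamin B12 complexes in kidney and gut, fell, with slopes of −1.70 and −1.55 log2. Tfr2, the liver's sensor of iron-loaded transferrin, fell by 1.81 log2 (slope −3.36 in another probe set). Tfrc, the general transferrin receptor, had 10.26 in colon and 10.19 on each of the other 4 arrays (limma adjusted p = 0.732). The haptoglobin receptor Cd163 stayed between 5.76 and 5.97 and the retinol-binding protein receptor Stra6 between 5.74 and 6.28, and neither passed.

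Of 9 genes for iron and haem handling, 1 fell and none rose, beside 14.5% and 9.8% of all named genes. The one was ceruloplasmin (Cp), the plasma ferroxidase, also counted among the other carriers, which fell by 1.14 log2 (slope −2.87 in another probe set). Its membrane-bound relative Heph, known for iron export from gut epithelium, had 7.02, 9.07, 9.34, 9.34 and 9.96 and did not pass (slope 2.46, limma adjusted p = 0.059). The iron exporter Slc40a1 had 10.09 in colon and 9.002 in whole mouse (limma adjusted p = 0.0572), and the ferritin subunit Fth1 had 13.34 in colon and 12.72 in whole mouse (limma adjusted p = 0.111). The haem-degrading enzyme Hmox1 stayed between 6.10 and 6.44.

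Transcription factors known to act on these genes in liver gave rises as well as a fall. Of 13 measured, 5 rose and 1 fell, with a median slope of 0.18, against 9.8% of named genes that rose. Hnf4a had 9.08, 10.86, 11.10, 11.40 and 11.66 and rose by 2.28 log2 (limma adjusted p = 0.0476). Foxa1 rose by 3.15 log2, Foxa2 by 1.54, the bile acid receptor Nr1h4 by 1.69 and Nr5a2, an orphan nuclear receptor of gut and liver, by 2.15. Foxa3, with 8.82 in colon and 6.61 in whole mouse, missed the threshold (adjusted p = 0.0521). Intestinal epithelium is known to make several of these factors. Cebpb fell by 0.70 log2, and Cebpa had 8.52 in colon and 9.55 in whole mouse (limma adjusted p = 0.0675). Zfhx3, a repressor of Afp, stayed between 5.75 and 6.03.

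Genes that liver silences after birth along with Afp, or that mark fetal growth, also had their high signals in whole mouse. Of 5 listed, 3 were measured, of which 2 fell and none rose. Gpc3, a heparan sulfate proteoglycan of fetal liver, had 10.60, 10.52, 9.77, 8.86 and 7.96 and fell by 2.78 log2 (limma adjusted p = 0.009). Dlk1, a surface protein of fetal liver precursors, fell by 4.10 log2. Igf2, the fetal growth factor, had 7.80 in colon and 13.37 in whole mouse and a slope of −4.95 (limma adjusted p = 0.056). These 3 are made by many newborn tissues besides liver, and the share of liver in them was not tested.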

How the data were processed

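Total RNA of adult colon and of whole newborn mice was mixed at 5 shares, with 1 array per mix. The authors deposited log2 signals of 22690 probe sets, made with RMA per the submitters' processing notes, with its version not given in the sources used here. RMA corrects background, normalizes by quantiles and combines probes by median polish, which can give exactly tied values between arrays. The number of arrays limits the precision.

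The 64 control probe sets were left out and 22626 tested without a filter. The annotation paired 20380 with 1 gene, and symbols were updated through RefSeq (GRCm38.p6) gene identifiers for 20364. Slopes on colon share (0 to 1) were fitted with limma 3.58.1 in R 4.3.3, with eBayes moderation, 3 residual degrees of freedom and 2-sided p-values. The fit was checked on simulated data with straight log2 slopes and independent noise, so that check does not cover bent signals. The 10 genes, the lists and the tests were chosen with earlier results of these data known. All 9 measured genes are named. From lists of other plasma proteins and hepatocyte enzymes, the 3 largest falls, every rise and the brightest gene not past the threshold are named (Afm, Orm2, Itih1, Itih2, Itih3, Itih4 and the single marker genes were added after their values were seen), as are the 5 genes most alike Alb and Afp. Alternatives were median centring, linear intensity, a mean log2 signal of at least 6, trended robust moderation, the mean of a gene's probe sets, subtraction of the poly-A control signal and leaving out each array.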

Additional observations from a re-analysis of the deposited data

How the results depend on the processing

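All 9 plasma protein genes kept a negative slope under each of the 10 alternatives to the fit. The number that fell was 6, and it was 7 with centred arrays, 8 on linear intensity (Afp and Ahsg added), 6 with the filter on dim probe sets, 5 with trended and robust moderation and 7 with the mean of all probe sets of a gene. Of all 12393 named genes, 1703, 1354, 1914 and 1884 fell with centring, linear intensity, trended robust moderation and probe set means. With the filter on dim probe sets, 1885 of 9642 genes fell. Leaving out each array in turn gave from 1 to 6, and for all named genes from 632 to 1223 in place of 1797. Such fits have fewer samples and residual degrees of freedom. The median deviation from linear mixing at 75% colon was 0.036 log2, and 0.053 with centred arrays, 0.037 after subtraction of the poly-A control signal (floor of 1) and 0.051 with the mean of all probe sets. No paired analysis was possible because each mix had 1 array. Without detection calls, low colon signals bound no fold.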
